A study of Homo sapiens with 66 samples.

Results

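The genes that make sterols and fatty acids were followed as one module through RNAseq of 2 human multiple myeloma cell lines exposed to inhibitors of prolyl-tRNA synthetase. The members came from a list of 33 gene symbols sorted by role, and 32 of them were matched through their Ensembl identifiers to the 20167 genes of the count table. They comprised 20 genes of sterol synthesis and sterol handling, of the type driven by SREBP2, 8 genes of fatty acid synthesis, of the type driven by SREBP1, and 4 regulators of both arms. The rule that lists them uses no measured value, although the list was drawn up with earlier results of these data known, and the expression of ACACA, a 9th gene of the fatty acid list, was not analysed here.

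AMO1 cells and L363-CFZr cells, a subline of L363 that is resistant to the proteasome inhibitor carfilzomib (CFZ), were treated for 6 h or 24 h. The treatments were NCP26, NCP22, halofuginone (HFG, MAZ1392) or halofuginol (MAZ1805), each at 1 µM, or DMSO as the solvent control, and in AMO1 cells also CFZ. NCP26 was developed from NCP22 and halofuginol is an analogue of HFG. Each of the 22 groups had 3 libraries, so that 66 libraries were read. L363-CFZr stands for 1 resistant subline, and its parental line and a CFZ group of it were not among these samples, so resistance and cell line cannot be told apart. The labels call the libraries of a group triplicates, and the study describes its experiments in general as using biological triplicates. Neither says which cultures the libraries of a group came from, so p-values measure the spread between these libraries, part of which may be technical.

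Sterols and fatty acids are built from acetyl-CoA along separate routes that share their transcriptional control. SREBP2 (SREBF2) and SREBP1 (SREBF1) are membrane proteins of the endoplasmic reticulum that SCAP escorts to the Golgi when sterols are scarce, where proteases release the part that enters the nucleus. INSIG1 and INSIG2 hold SCAP back when sterols are abundant, and INSIG1 is itself a target gene, so the arm has a built-in brake. SREBP2 acts mainly on the mevalonate and cholesterol genes and SREBP1 mainly on the fatty acid genes, both with help from the CCAAT-binding factor NF-Y and from Sp1. Plasma cells, from which myeloma arises, carry an expanded endoplasmic reticulum for antibody secretion and need lipid for its membranes.

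Total counts ran from 1666325 to 5761682 in the 36 AMO1 libraries and from 2487872 to 6596543 in the 30 L363-CFZr libraries. All 10 plasma cell markers were present in every library, with JCHAIN, which joins antibody chains, at 1015 to 4865 CPM (counts scaled to a common library size) in AMO1 cells and at 2276 to 6189 CPM in L363-CFZr cells, while 11 markers of other lineages stayed under 10 CPM throughout. Taken in their listed order, the libraries divide into 3 sets of 22, here called sets A, B and C. Each set holds every number that recurs in the column names once. That the sets follow the listed order is assumed, and what they stand for is not stated. In AMO1 cells at 24 h, DMSO and 1 CFZ library belonged to set A and all others to set B. In L363-CFZr cells at 6 h, HFG, halofuginol and 1 NCP22 library belonged to set C and all others to set B. One control library, L363-CFZr DMSO at 24 h replicate 2, stood apart from its partners, and several of the results that rest on it are given with and without it. All 32 members passed the filter on low counts in every comparison.

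The promoters are shown first, although the module is a list of symbols sorted by role and is not defined by them. RefSeq promoters, from 250 bases before to 50 bases after the start of the gene in GRCh38.p14, were held for 29 of the 33 listed genes, and FDFT1, SQLE, FASN and ACAT2 had none. The NF-Y box CCAAT, searched on both strands like every other motif, was found in 22 of the 29 (75.9%), against 39.7% of all 27305 genes with a promoter and 44.2% of the 8756 of them that were tested, a gene being counted where any of its promoters held the motif. By role it was in 15 of 17 sterol genes, 5 of 8 fatty acid genes and 2 of 4 regulators, and these 8 include ACACA and lack FASN. The Sp1 box GGGCGG was in 96.6% of the members, 48.3% of all these genes and 78.4% of the tested ones. The sterol regulatory element TCACNCCAC was found in 1 of 29, that of SREBF2 (3.45%, against 1.39% of all genes), and TGATGNAA, a C/EBP-ATF element, in 0 of 29 (4.46% of all). CACNCCA, which is the inner part of that element and was added after the first search, was in 14 of 29 (48.3%), against 20.6% of all genes. The stretches below were picked because they hold matches, and the capitals mark CCAAT and the inner part of the sterol element on either strand. Other members differed, and SREBF1, FADS1 and LPIN1 held no CCAAT in any promoter. For HMGCS1 a promoter with CCAAT is shown, and another of its promoters held none.

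HMGCS1, chr5:43313498-43313577, minus strand: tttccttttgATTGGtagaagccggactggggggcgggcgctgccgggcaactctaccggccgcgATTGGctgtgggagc
INSIG1, chr7:155297663-155297722, plus strand: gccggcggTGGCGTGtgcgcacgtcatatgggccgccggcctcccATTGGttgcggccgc
MSMO1, chr4:165327474-165327649, plus strand: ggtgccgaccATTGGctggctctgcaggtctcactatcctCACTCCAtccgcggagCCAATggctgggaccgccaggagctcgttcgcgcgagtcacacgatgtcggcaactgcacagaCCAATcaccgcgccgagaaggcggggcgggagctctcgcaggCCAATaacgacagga
SCD, chr10:100346998-100347133, plus strand: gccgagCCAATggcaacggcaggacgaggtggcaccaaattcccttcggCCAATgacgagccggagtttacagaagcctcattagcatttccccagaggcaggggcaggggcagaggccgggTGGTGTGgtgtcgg
SREBF2, chr22:41832965-41833009, plus strand: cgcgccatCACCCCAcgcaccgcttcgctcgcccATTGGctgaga

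HMGCS1, MSMO1 and SCD each showed more than 1 NF-Y box, and those of MSMO1 were spread over both strands. The match of SREBF2 to the sterol regulatory element spans the first run of capitals in its line. A match describes letters and not binding, which these data do not measure.

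In DMSO the members spanned a wide range of levels. Per kilobase of transcript in AMO1 cells at 6 h, FDPS, which makes farnesyl diphosphate, stood highest at 360.1 CPM per kilobase, followed by SCD, the desaturase that makes oleate, at 209.9 and INSIG1 at 172.3. At the low end stood SC5D, a late sterol desaturase, at 2.38 CPM per kilobase and FADS2, a desaturase of polyunsaturated fatty acids, at 4.80. In L363-CFZr cells at 6 h SCD stood highest at 267.3 CPM per kilobase, then FDPS at 255.3, and FADS1 lowest at 1.69. For some members part of the sequence also occurs in other genes, so their counts depend on how reads were shared out. The share of 31-base words found elsewhere was 73.2% for CYP51A1, 38.9% for HMGCS1, 33.2% for EBP, 23.5% for FDPS and 23.1% for HSD17B7, and 0% for INSIG1 and SQLE.

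NCP26 and HFG lowered many members of both arms in AMO1 cells, while NCP22 lowered 11 at 6 h and 0 at 24 h and halofuginol 2 at each time. A gene is said to have risen or fallen where the Benjamini-Hochberg adjusted p of edgeR's quasi-likelihood test over all tested genes was under 0.05. With NCP26 at 6 h, 19 of 32 members fell and 2 rose, against a background of 37.3% of all tested genes called, with 19.2% called lower. With HFG at 6 h, 20 fell and 2 rose, against 54.3% called and 26.6% lower. At 24 h 26 fell and 1 rose with NCP26, where 60.7% of all genes were called and 30.9% were lower, and 21 fell and 2 rose with HFG, with a background of 59.0% and 30.5%. Among the sterol genes 12 fell with each compound at 6 h, 17 with NCP26 at 24 h and 14 with HFG at 24 h. With the set of libraries as a term, which at 24 h rests on the CFZ libraries of both sets, 22 members were called with NCP26 and 14 with HFG. The share of all genes called in that fit is not given here, so these counts stand without a background. Bulk RNA cannot tell less RNA per cell from fewer cells that carry it.

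With the related compounds, at the same dose, fewer members passed the test. NCP22 at 6 h lowered 11 members and raised 0 in AMO1 cells, where 13.5% of all genes were called, 7.42% higher and 6.08% lower. At 24 h it moved 0 members and 0.00% of the tested genes by edgeR, although 4 members and 638 genes had an unadjusted p under 0.05. Halofuginol lowered FASN and ACLY at 6 h, with 3.62% of genes called, 2.60% higher and 1.02% lower, and FASN and HMGCS1 at 24 h, with 0.183%. With the set as a term the latter 2 were −1.04 (adjusted p = 0.294) and −0.087 (adjusted p = 0.891). CFZ gave calls in both directions. At 6 h 11 fell and 6 rose, against 26.9% called, 14.1% higher and 12.8% lower, and at 24 h 7 fell and 2 rose, against 27%, 13.1% and 14%. The 9 of 32 members called at 24 h were close to the share of all genes in that fit, but the count was not stable. Without CFZ replicate 2 at 24 h 16 members were called, and one fit of all groups of the line called 17. The shares of all genes called in those 2 fits are not given here. At 6 h DESeq2 called 11 members where edgeR called 17, and the share of all genes in that fit is not given.

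NCP26 and HFG lowered members in L363-CFZr cells too. NCP26 at 6 h lowered 9 members and raised 0, with 18.8% of all genes called, 9.81% higher and 8.99% lower. HFG at 6 h lowered 19 and raised 3, with 54.5% and 27.5%, and halofuginol at 6 h lowered 5 and raised 4, with 25.8% called, 13.6% higher and 12.2% lower. With the set as a term, an alternative chosen after the values had been seen that rests on 1 NCP22 library, 8 members were called with HFG and 1 with halofuginol. Fold changes with halofuginol at 6 h correlated with GC content across genes at r = −0.717, and with an offset for GC content 0 members were called. The shares of all genes called in the fits with the set term or the offset are not given here. At 24 h NCP26 lowered 15 and raised 0, with 7.09% called and 4.38% lower, and HFG lowered 2, with 1.17% called, 0.592% higher and 0.573% lower. Without DMSO replicate 2 at 24 h NCP26 lowered 23 members, with a background of 28.6%, and HFG lowered 19, with 19.5%. With any other single library of the comparison left out, 1 to 7 members were called with NCP26 and 0 with HFG, that control still being in the fit. For those fits the share of all genes called is not given. NCP22 moved 0 members at both times, with 0.00% and 0.00% of genes called, and halofuginol 0 at 24 h, with 0.00%. At an unadjusted p under 0.05 the counts with NCP22 were 1 member and 666 of 10235 genes at 6 h, and 0 members and 213 of 10727 genes at 24 h. With halofuginol at 24 h they were 2 members and 410 of 10531 genes.

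**Figure D1:**
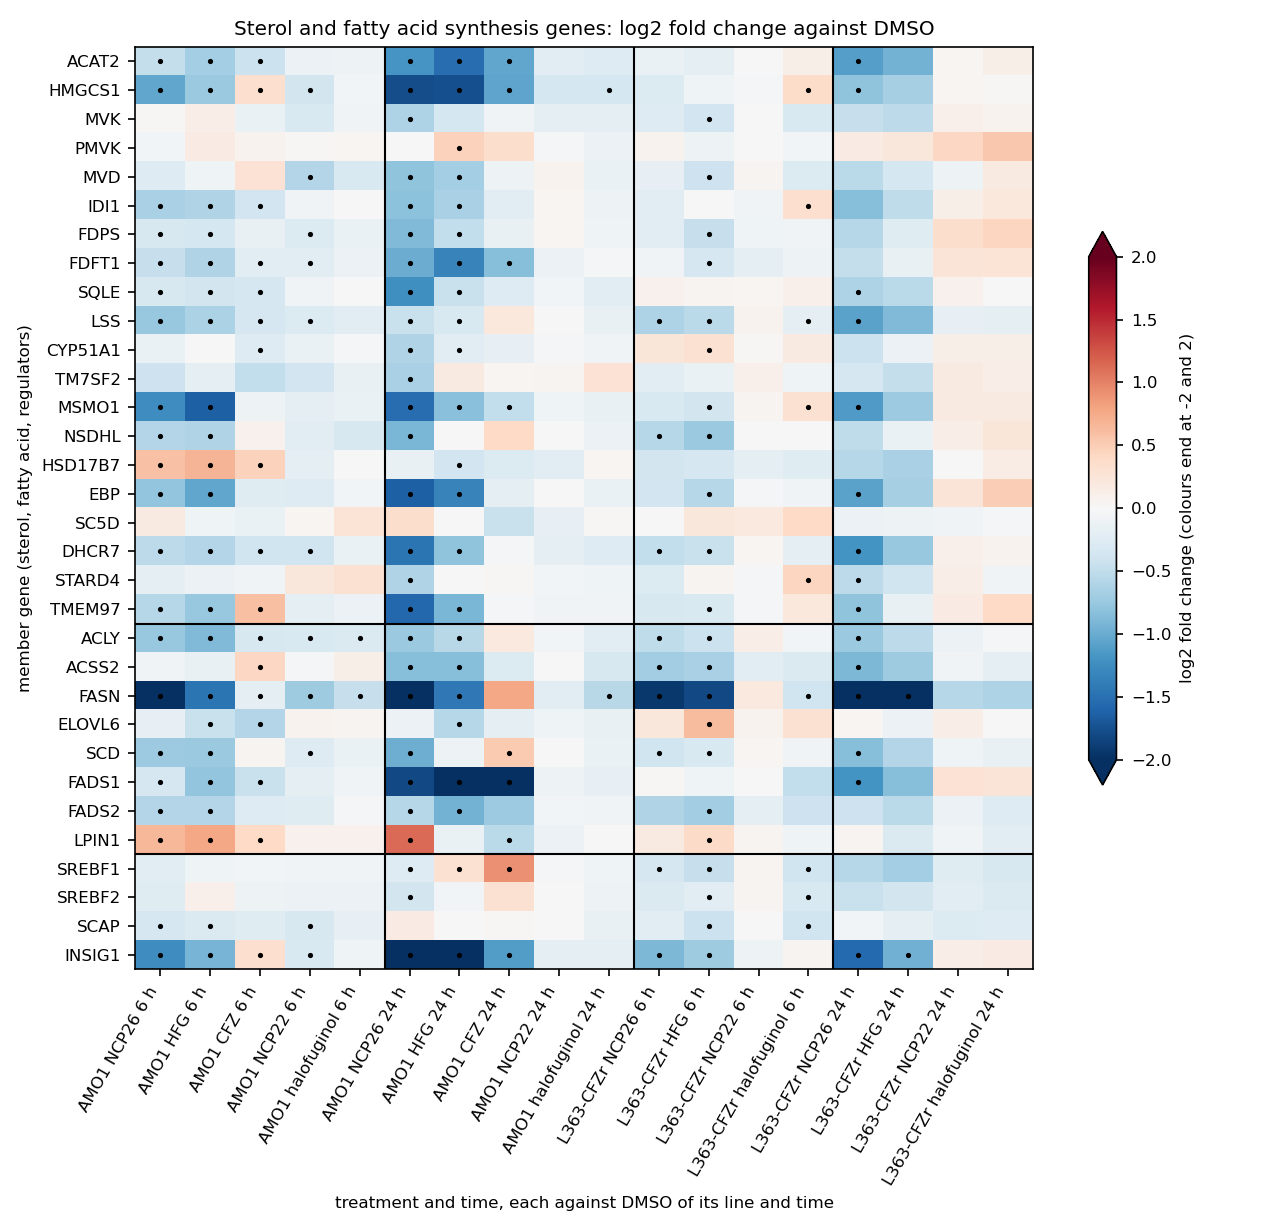
Log2 fold change against DMSO of the same line and time for the 32 members, from top to bottom by role, in 18 comparisons from left to right. Colours end at −2 and 2. Blue is lower and red higher than DMSO, and a dot marks an adjusted p under 0.05. FASN, INSIG1 and HMGCS1 are blue with NCP26 and HFG in AMO1 cells at both times, and LPIN1 is red with NCP26 at 6 h and 24 h.

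INSIG1 (chr7:155297776-155310235, plus strand, GRCh38), the brake of the pathway, was lowered by NCP26 and HFG in both lines at both times. AMO1 libraries at 6 h held INSIG1 at 451, 508 and 544 CPM with DMSO, 209, 223 and 197 with NCP26, 239, 263 and 264 with HFG, 396, 393 and 414 with NCP22, 472, 469.9 and 465 with halofuginol, and 628, 633 and 649 with CFZ. The 24 h libraries held INSIG1 at 348, 344 and 364 CPM with DMSO, 75.5, 77.9 and 76.8 with NCP26, 60.2, 61.7 and 71.3 with HFG, 269, 331 and 321 with NCP22, 298, 319 and 316 with halofuginol, and 162, 141 and 177 with CFZ. The NCP26 and HFG libraries lay below all others of their time, and CFZ lay above DMSO at 6 h and between HFG and DMSO at 24 h. On the log2 scale, with its standard error, the difference from DMSO was −1.25 ± 0.11 (adjusted p = 5.83e-06) with NCP26 and −0.93 ± 0.079 (adjusted p = 1.21e-07) with HFG at 6 h. At 24 h it was −2.20 ± 0.059 (adjusted p = 9.46e-24) and −2.44 ± 0.071 (adjusted p = 2.74e-15). CFZ raised INSIG1 by 0.34 ± 0.067 (adjusted p = 0.000566) at 6 h and lowered it at 24 h, with −1.12 ± 0.11 (adjusted p = 0.000337). INSIG1 thus rose early and fell late with CFZ, and fell at both times with NCP26 and HFG. In L363-CFZr cells INSIG1 started lower. At 6 h it stood at 99, 95.1 and 90.7 CPM with DMSO, 50.9, 54.5 and 44.3 with NCP26, 58.5, 59.4 and 52.4 with HFG, 80.7, 95.2 and 87.7 with NCP22, and 95.2, 94.9 and 104 with halofuginol. After 24 h the values were 172, 145 and 179 CPM with DMSO, 58.6, 53.7 and 56.4 with NCP26, 79, 88.5 and 89 with HFG, 193, 184 and 169.9 with NCP22, and 183, 194 and 177 with halofuginol. Again no NCP26 or HFG library overlapped with DMSO, while those of NCP22 and halofuginol did. The difference was −0.91 ± 0.11 (adjusted p = 0.00055) with NCP26 and −0.71 ± 0.086 (adjusted p = 3.45e-07) with HFG at 6 h, and −1.55 ± 0.14 (adjusted p = 0.00126) and −0.95 ± 0.13 (adjusted p = 0.019) at 24 h. Without DMSO replicate 2 the 24 h values were −1.64 (adjusted p = 6.03e-08) and −1.03 (adjusted p = 5.41e-11). With the replicate number as a block, or with any other single library left out, 0 members were called with HFG there, so INSIG1 did not pass. Its value with HFG at 24 h ranged from −1.03 to −0.89 with 1 library left out. Values of INSIG1 with the set as a term are not given here.

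SREBF1 (chr17:17810399-17837002, minus strand), which encodes SREBP1, moved less and in different directions. In AMO1 cells at 6 h it stood at 188, 170.4 and 182 CPM with DMSO, 156, 146 and 161 with NCP26, 149, 176 and 173 with HFG, 176, 171 and 162 with NCP22, 177, 173 and 159.6 with halofuginol, and 174, 178 and 168 with CFZ. Its levels at 24 h were 146, 134 and 148 CPM with DMSO, 116, 114 and 129 with NCP26, 167, 176 and 185 with HFG, 138, 139.5 and 134 with NCP22, 144, 131 and 130.2 with halofuginol, and 228, 336 and 229 with CFZ. At 24 h NCP26 lay below and HFG and CFZ above DMSO without overlap. The differences at 24 h were −0.25 ± 0.068 (adjusted p = 0.00221) with NCP26, 0.31 ± 0.067 (adjusted p = 0.000634) with HFG and 0.92 ± 0.18 (adjusted p = 0.00634) with CFZ, where replicate 2 stood highest. DMSO and the treated libraries belonged to different sets here, and with the set as a term the value for HFG was −0.018 (adjusted p = 0.949) and that for NCP26 −0.58 (adjusted p = 0.00999). With an offset for GC content, which is 63.21% in the SREBF1 transcript, that for NCP26 was −0.051 (adjusted p = 0.525) and no longer passed. At 6 h neither compound passed the test, with −0.22 ± 0.10 (adjusted p = 0.0905) for NCP26 and −0.078 ± 0.082 (adjusted p = 0.438) for HFG. In L363-CFZr cells at 6 h SREBF1 stood at 372, 383 and 419 CPM with DMSO, 311, 289 and 317 with NCP26, 275, 276 and 280 with HFG, 389, 380.2 and 447 with NCP22, and 307, 293 and 293 with halofuginol. SREBF1 at 24 h stood at 315, 472 and 301 CPM with DMSO, 269, 229.9 and 229 with NCP26, 237, 222 and 219 with HFG, 282, 326 and 311 with NCP22, and 299.6, 279 and 296 with halofuginol. The inhibitors lay below DMSO at 6 h, NCP22 excepted. The 6 h differences were −0.34 ± 0.10 (adjusted p = 0.0331) with NCP26, −0.47 ± 0.06 (adjusted p = 6.87e-07) with HFG and −0.39 ± 0.053 (adjusted p = 0.000201) with halofuginol. With the GC content offset they were −0.12 (adjusted p = 0.436), −0.11 (adjusted p = 0.102) and −0.15 (adjusted p = 0.122), and none passed. With the set as a term halofuginol gave −0.59 (adjusted p = 0.115).

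SREBF2 (chr22:41833105-41907306, plus strand), which encodes SREBP2, changed little. The 6 h values in AMO1 cells were 303, 274 and 266 CPM with DMSO, 194, 244 and 274 with NCP26, 286, 304 and 293 with HFG, 255, 251 and 266 with NCP22, 248, 262 and 266 with halofuginol, and 257, 260.2 and 274 with CFZ. At 24 h the libraries had SREBF2 at 285, 282 and 278 CPM with DMSO, 227, 216 and 215 with NCP26, 282, 278 and 259 with HFG, 286, 273 and 289 with NCP22, 258, 265 and 270.2 with halofuginol, and 313, 429 and 288 with CFZ. NCP26 libraries lay below DMSO at 24 h and overlapped with it at 6 h. The difference with NCP26 at 24 h was −0.36 ± 0.051 (adjusted p = 3.08e-07), and that with HFG was −0.048 ± 0.055 (adjusted p = 0.477). For NCP26 it became −0.58 (adjusted p = 0.0159) with the set as a term and −0.21 (adjusted p = 0.00057) with the GC content offset. In L363-CFZr cells it stood at 306, 291 and 299 CPM with DMSO, 251, 219.7 and 254 with NCP26, 255, 237 and 254 with HFG, 304, 296 and 325 with NCP22, and 240.2, 254 and 230.5 with halofuginol at 6 h. By 24 h the values stood at 334, 491 and 307 CPM with DMSO, 307, 267 and 248 with NCP26, 287, 299 and 292 with HFG, 303, 323 and 337 with NCP22, and 300.5, 316 and 312 with halofuginol. NCP26, HFG and halofuginol lay below DMSO at 6 h, where the differences were −0.28 ± 0.10 (adjusted p = 0.0664), −0.23 ± 0.059 (adjusted p = 0.00229) and −0.30 ± 0.055 (adjusted p = 0.00103). With the GC content offset that of HFG was 0.084 (adjusted p = 0.232), above 0, and that of halofuginol did not pass, and with the set as a term HFG gave −0.36 (adjusted p = 0.214). SCAP, the escort of both factors, fell with NCP26 (−0.33 ± 0.12), HFG (−0.29 ± 0.094) and NCP22 (−0.32 ± 0.094) in AMO1 cells at 6 h, at adjusted p = 0.0451, 0.017 and 0.0275, and passed in 0 of the 5 AMO1 comparisons at 24 h. With the GC content offset NCP22 gave −0.13 (adjusted p = 0.368), and DESeq2 did not call it either, with −0.32 (adjusted p = 0.056). GC content is 61.73% in the SCAP transcript, and offset values for NCP26 and HFG are not given here. In L363-CFZr cells at 6 h all 4 regulators were called lower with HFG in the main fit, SCAP among them. With the GC content offset SREBF1 and SREBF2 did not pass with HFG at that time, as given above. HFG and DMSO also belonged to different sets in L363-CFZr cells at 6 h. Halofuginol changed SCAP by −0.39 there, and with the GC content offset 0 members were called with halofuginol.

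HMGCS1 (chr5:43287470-43313512, minus strand), the synthase that makes HMG-CoA at the head of the mevalonate route, followed INSIG1 in AMO1 cells. AMO1 libraries at 6 h held HMGCS1 at 252, 267 and 336 CPM with DMSO, 120.3, 158 and 135 with NCP26, 169, 169 and 160.2 with HFG, 209.6, 224 and 225 with NCP22, 284, 269 and 262 with halofuginol, and 359, 384 and 343 with CFZ. The 24 h libraries held HMGCS1 at 207, 206 and 201 CPM with DMSO, 54.8, 65.5 and 60.4 with NCP26, 56.3, 62.9 and 62.3 with HFG, 132, 167 and 178 with NCP22, 165, 161 and 157 with halofuginol, and 111, 76 and 106 with CFZ. NCP26 and HFG libraries were the lowest at both times, CFZ the highest at 6 h and the next lowest at 24 h. The differences from DMSO were −1.04 ± 0.13 (adjusted p = 9.64e-05) at 6 h and −1.77 ± 0.071 (adjusted p = 1.89e-19) at 24 h with NCP26, and with HFG −0.74 ± 0.10 (adjusted p = 1.04e-05) and −1.75 ± 0.07 (adjusted p = 2.91e-13). CFZ gave 0.34 ± 0.087 (adjusted p = 0.0053) and −1.05 ± 0.14 (adjusted p = 0.00125), so that it too changed sign between the times, although by DESeq2 the rise at 6 h was 0.34 (adjusted p = 0.0672). With the set as a term the 24 h values of NCP26 and HFG were −1.51 (adjusted p = 2.05e-06) and −1.48 (adjusted p = 2.01e-06). In L363-CFZr cells HMGCS1 stood at 73.4, 66.8 and 61.2 CPM with DMSO, 53.5, 51.6 and 58.9 with NCP26, 58.3, 63 and 62.9 with HFG, 68, 73.6 and 55.8 with NCP22, and 86.1, 85.2 and 84.5 with halofuginol at 6 h. After 24 h the values were 126, 91.2 and 105 CPM with DMSO, 59.5, 63.6 and 60.6 with NCP26, 72.8, 70.2 and 60.6 with HFG, 108, 112 and 111 with NCP22, and 112, 106 and 109.5 with halofuginol. At 6 h HFG overlapped with DMSO and halofuginol lay above it, and at 24 h NCP26 and HFG lay below every other library. The differences with NCP26 were −0.27 ± 0.12 (adjusted p = 0.135) at 6 h and −0.80 ± 0.15 (adjusted p = 0.0211) at 24 h, and the latter was −0.90 (adjusted p = 3.33e-05) without DMSO replicate 2.

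The other early steps turn acetyl-CoA into farnesyl diphosphate. ACAT2, the cytosolic thiolase ahead of HMGCS1, stood in AMO1 cells at 24 h at 44.8, 45.8 and 50.1 CPM with DMSO, 17.5, 22.5 and 22.8 with NCP26, 21.4, 17.4 and 12.6 with HFG, and 27.3, 14.1 and 26.1 with CFZ. All 9 treated libraries lay below DMSO, with −1.18 ± 0.12, −1.52 ± 0.15 and −1.04 ± 0.21 on the log2 scale and adjusted p = 7.89e-10, 8.51e-08 and 0.00863. With the set as a term NCP26 gave −0.75 (adjusted p = 0.0438). IDI1, the isomerase of isopentenyl diphosphate, stood in AMO1 cells at 6 h at 72.4, 79.8 and 89 CPM with DMSO and 51.3, 52.8 and 49.4 with NCP26, with a difference of −0.64 ± 0.11 (adjusted p = 0.000856). FDPS changed by −0.89 ± 0.053 (adjusted p = 4.26e-15) with NCP26 at 24 h, and MVK and MVD, the mevalonate kinase and decarboxylase, by −0.62 ± 0.21 (adjusted p = 0.0123) and −0.81 ± 0.14 (adjusted p = 1.03e-05). PMVK, phosphomevalonate kinase, went the other way with HFG. In AMO1 cells at 24 h it stood at 85.8, 78.9 and 90 CPM with DMSO, 82.3, 86.8 and 84.7 with NCP26, and 119, 117 and 116 with HFG, a difference of 0.46 ± 0.074 (adjusted p = 3.34e-05) with HFG and of −0.012 ± 0.077 (adjusted p = 0.905) with NCP26. The HFG libraries lay above all of DMSO and NCP26. PMVK also marked the control that stood apart, at 149, 57.6 and 130 CPM in the 3 L363-CFZr DMSO libraries at 24 h.

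Squalene is formed by FDFT1, oxidised by SQLE and cyclised by LSS. FDFT1 stood in AMO1 cells at 24 h at 161, 154 and 170 CPM with DMSO, 81.4, 86.8 and 78.3 with NCP26, 62.5, 60.9 and 68 with HFG, and 80.9, 88.5 and 96.9 with CFZ. It changed by −0.99 ± 0.07 (adjusted p = 2.39e-13), −1.34 ± 0.075 (adjusted p = 3.36e-11) and −0.85 ± 0.11 (adjusted p = 0.00113) with these treatments. The 3 treatments separated fully from DMSO, and HFG lay lowest. SQLE stood in AMO1 cells at 6 h at 125, 128 and 154 CPM with DMSO, 97.9, 117 and 106 with NCP26, 94, 98.6 and 113 with HFG, 130, 125 and 128 with NCP22, 142, 146 and 117 with halofuginol, and 114, 111 and 97.7 with CFZ. Its levels at 24 h were 113, 107 and 111 CPM with DMSO, 57.9, 43.4 and 40.4 with NCP26, 81.7, 82 and 79.6 with HFG, 102, 115 and 98.3 with NCP22, 95.7, 95.6 and 96.5 with halofuginol, and 95.6, 87.2 and 90.7 with CFZ. At 24 h NCP26 lay lowest, HFG next, and the other groups lay closer to DMSO. NCP26 changed SQLE by −0.33 ± 0.11 (adjusted p = 0.0353) at 6 h and by −1.23 ± 0.094 (adjusted p = 1.38e-12) at 24 h, and HFG by −0.36 ± 0.10 (adjusted p = 0.00533) and −0.45 ± 0.071 (adjusted p = 3.03e-05). DESeq2 gave −0.31 (adjusted p = 0.0777) for NCP26 at 6 h, and the set as a term −0.36 (adjusted p = 0.16) for HFG at 24 h. In L363-CFZr cells SQLE stood at 114, 104 and 98.6 CPM with DMSO, 106, 113 and 112 with NCP26, 107, 110.2 and 104 with HFG, 115, 103 and 104 with NCP22, and 112, 118 and 105 with halofuginol at 6 h. SQLE at 24 h stood at 131, 105 and 130.2 CPM with DMSO, 73.8, 83 and 81.8 with NCP26, 89.3, 85.1 and 77.8 with HFG, 135, 130.2 and 124 with NCP22, and 128, 128 and 113 with halofuginol. The groups overlapped at 6 h, and at 24 h NCP26 and HFG lay under DMSO, with −0.61 ± 0.14 (adjusted p = 0.0396) and −0.54 ± 0.13 (adjusted p = 0.114). Without the filter on low counts NCP26 gave −0.61 (adjusted p = 0.057).

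LSS, the cyclase that makes lanosterol, stood in AMO1 cells at 6 h at 138, 125 and 126 CPM with DMSO, 70.9, 77.2 and 81 with NCP26, 78.7, 82 and 84.1 with HFG, 101, 115 and 104 with NCP22, 104, 113 and 115 with halofuginol, and 101, 106 and 103 with CFZ. At 24 h the libraries had LSS at 92.4, 92.8 and 82.8 CPM with DMSO, 69.5, 66.2 and 61.3 with NCP26, 82.2, 64.6 and 71 with HFG, 84.6, 96.2 and 82.9 with NCP22, 76.3, 86.4 and 78.5 with halofuginol, and 99.1, 118 and 90.3 with CFZ. It was low with NCP26 and HFG at 6 h and nearer to DMSO at 24 h. The differences with NCP26 were −0.75 ± 0.10 (adjusted p = 0.000125) and −0.44 ± 0.082 (adjusted p = 2.82e-05), and with HFG −0.63 ± 0.081 (adjusted p = 9.78e-06) and −0.31 ± 0.091 (adjusted p = 0.00736). With the GC content offset the values at 6 h and 24 h were −0.52 (adjusted p = 0.00114) and −0.29 (adjusted p = 0.00334) for NCP26 and −0.41 (adjusted p = 9.26e-05) and −0.20 (adjusted p = 0.0661) for HFG, and with the set as a term HFG at 24 h was −0.39 (adjusted p = 0.0783). In L363-CFZr cells LSS stood at 110.5, 109 and 112 CPM with DMSO, 73.2, 67.5 and 72.9 with NCP26, 78.1, 76.9 and 69.1 with HFG, 102, 115 and 127 with NCP22, and 94.4, 101 and 93.7 with halofuginol at 6 h. By 24 h the values stood at 130.2, 190.3 and 129 CPM with DMSO, 84.6, 64.5 and 63.2 with NCP26, 87, 77.1 and 77.8 with HFG, 118, 139.9 and 140.5 with NCP22, and 144, 135 and 119 with halofuginol. NCP26 and HFG lay below every other library at both times, and DMSO replicate 2 stood highest at 24 h. NCP26 changed it by −0.61 ± 0.10 (adjusted p = 0.00229) at 6 h and by −1.07 ± 0.20 (adjusted p = 0.0224) at 24 h. Without DMSO replicate 2 the 24 h value was −0.87 (adjusted p = 0.000177).

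The steps from lanosterol to cholesterol held the member with the largest fall with HFG in AMO1 cells at 6 h. MSMO1 (chr4:165327667-165343164, plus strand), which removes methyl groups from the sterol ring, stood in AMO1 cells at 6 h at 69.4, 79.8 and 73.4 CPM with DMSO, 37.2, 29.9 and 26.7 with NCP26, 22.3, 25.9 and 22.1 with HFG, and 69.6, 72.6 and 66.8 with CFZ. The 24 h libraries held MSMO1 at 53.9, 49.6 and 53.7 CPM with DMSO, 19.1, 20.9 and 15.2 with NCP26, 25.9, 28.6 and 32.2 with HFG, and 37.5, 35 and 38.1 with CFZ. HFG lay below NCP26 at 6 h and above it at 24 h, and both lay below DMSO each time. The falls were −1.25 ± 0.13 (adjusted p = 3.15e-05) with NCP26 and −1.63 ± 0.11 (adjusted p = 1.21e-08) with HFG at 6 h, and −1.52 ± 0.12 (adjusted p = 3.52e-12) and −0.84 ± 0.11 (adjusted p = 3.09e-06) at 24 h. In L363-CFZr cells at 6 h MSMO1 stood at 42.4, 37.8 and 36.3 CPM with DMSO, 29.2, 29.8 and 33.2 with NCP26, and 26.2, 29.4 and 31.9 with HFG, a difference of −0.31 ± 0.13 (adjusted p = 0.114) with NCP26 that did not pass. After 24 h the values were 72.6, 59.4 and 59.5 CPM with DMSO, 27.2, 31.7 and 27.7 with NCP26, and 38, 42 and 35.6 with HFG, with −1.13 ± 0.15 (adjusted p = 0.00599) for NCP26. EBP, a sterol isomerase, stood in AMO1 cells at 121, 128 and 101 CPM with DMSO, 72.5, 64.2 and 65.4 with NCP26, and 56.4, 62 and 49.8 with HFG at 6 h. Its levels at 24 h were 80, 75.8 and 80.6 CPM with DMSO, 24.7, 20.9 and 30.4 with NCP26, and 26.5, 30.6 and 35.1 with HFG. The treated groups were lower than DMSO without overlap, with −0.79 ± 0.11 and −1.03 ± 0.11 at 6 h for NCP26 and HFG and −1.63 ± 0.11 and −1.33 ± 0.10 at 24 h, each past the threshold. DHCR7, which makes cholesterol from 7-dehydrocholesterol, stood in AMO1 cells at 24 h at 54.3, 56.2 and 60.1 CPM with DMSO, 19.7, 20.2 and 22.5 with NCP26, and 31.5, 33.5 and 32.5 with HFG, a difference of −1.46 ± 0.11 (adjusted p = 1.05e-12) with NCP26. NSDHL, which acts beside MSMO1, stood in L363-CFZr cells at 6 h at 47.7, 55.6 and 51.8 CPM with DMSO, 35.9, 35.6 and 31.1 with NCP26, and 32.3, 29.4 and 28.9 with HFG. It was below DMSO with both, the differences being −0.57 ± 0.12 (adjusted p = 0.00928) and −0.74 ± 0.11 (adjusted p = 4.48e-06), the latter −0.40 (adjusted p = 0.214) with the set as a term. HSD17B7, a ketoreductase of the same steps, was the sterol gene that rose with NCP26 and HFG at 6 h. In AMO1 cells at 6 h it stood at 24.1, 33.6 and 28.7 CPM with DMSO, 41.9, 39.5 and 46.8 with NCP26, 43.8, 42.5 and 47.9 with HFG, and 37.5, 43.9 and 37.8 with CFZ. All 9 treated libraries lay above DMSO, with 0.58 ± 0.15 (adjusted p = 0.00887), 0.68 ± 0.13 (adjusted p = 0.000399) and 0.46 ± 0.14 (adjusted p = 0.0181). DESeq2 gave 0.46 (adjusted p = 0.0766) for CFZ. HSD17B7 at 24 h stood at 24.9, 25 and 21.4 CPM with DMSO, 21.9, 20.2 and 21.9 with NCP26, and 17.5, 19.5 and 17.2 with HFG, with HFG below DMSO. CYP51A1 and TM7SF2, which act on the ring ahead of MSMO1, changed by −0.60 ± 0.076 (adjusted p = 5.04e-08) and −0.65 ± 0.22 (adjusted p = 0.0117) with NCP26 at 24 h, and SC5D by 0.36 ± 0.16 (adjusted p = 0.0544), which did not pass.

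The last pair of the sterol list handles sterols rather than making them. STARD4 carries cholesterol between membranes. In AMO1 cells it stood at 39, 45.1 and 48.9 CPM with DMSO, 37.2, 43.5 and 34.1 with NCP26, 36.1, 40.9 and 41 with HFG, 47.5, 51.2 and 54.5 with NCP22, 59.9, 51.8 and 51.6 with halofuginol, and 46.6, 43.9 and 36.8 with CFZ at 6 h. At 24 h the libraries had STARD4 at 73.4, 71.1 and 63.1 CPM with DMSO, 45.4, 47 and 43.4 with NCP26, 64.2, 65.8 and 74.3 with HFG, 72.5, 59.7 and 66.9 with NCP22, 66.6, 65.7 and 64.2 with halofuginol, and 79.2, 56.3 and 72 with CFZ. NCP26 lay below all other groups at 24 h, and HFG overlapped with DMSO. The 24 h differences were −0.60 ± 0.091 (adjusted p = 1.25e-06) with NCP26 and −0.0055 ± 0.093 (adjusted p = 0.965) with HFG, and with the set as a term that of NCP26 was −0.33 (adjusted p = 0.219). In L363-CFZr cells STARD4 stood at 54, 59.7 and 47.3 CPM with DMSO, 48.1, 39.1 and 43.9 with NCP26, 50.6, 56.4 and 55 with HFG, 62.8, 51.6 and 42 with NCP22, and 75.8, 64.8 and 74.1 with halofuginol at 6 h. By 24 h the values stood at 106, 104 and 105 CPM with DMSO, 70.3, 79.4 and 67.8 with NCP26, 80.7, 76.1 and 83.7 with HFG, 125, 112 and 109 with NCP22, and 105, 111 and 84.3 with halofuginol. Halofuginol lay highest at 6 h, and NCP26 and HFG lowest at 24 h. Halofuginol changed it by 0.43 ± 0.10 (adjusted p = 0.00385) at 6 h, and NCP26 by −0.53 ± 0.12 (adjusted p = 0.0405) at 24 h. The halofuginol value was 0.047 (adjusted p = 0.847) with the GC content offset and 0.88 (adjusted p = 0.0411) with the set as a term, and that of NCP26 was −0.52 (adjusted p = 0.0775) without the filter. TMEM97, which regulates the sterol transporter NPC1, stood in AMO1 cells at 6 h at 67.8, 79.5 and 71.9 CPM with DMSO, 51.7, 49.1 and 45.5 with NCP26, 43, 44.1 and 40.2 with HFG, and 115, 116 and 103 with CFZ. The 24 h libraries held TMEM97 at 51.4, 54.6 and 58.3 CPM with DMSO, 21, 18.6 and 16.4 with NCP26, 33.8, 26.9 and 28.2 with HFG, and 55.4, 50.3 and 52.1 with CFZ. CFZ lay above DMSO at 6 h, by 0.60 ± 0.091 (adjusted p = 3.35e-05), and NCP26 and HFG below. NCP26 changed TMEM97 by −0.58 ± 0.11 (adjusted p = 0.00168) at 6 h and −1.57 ± 0.12 (adjusted p = 8.3e-13) at 24 h.

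**Figure D2:**
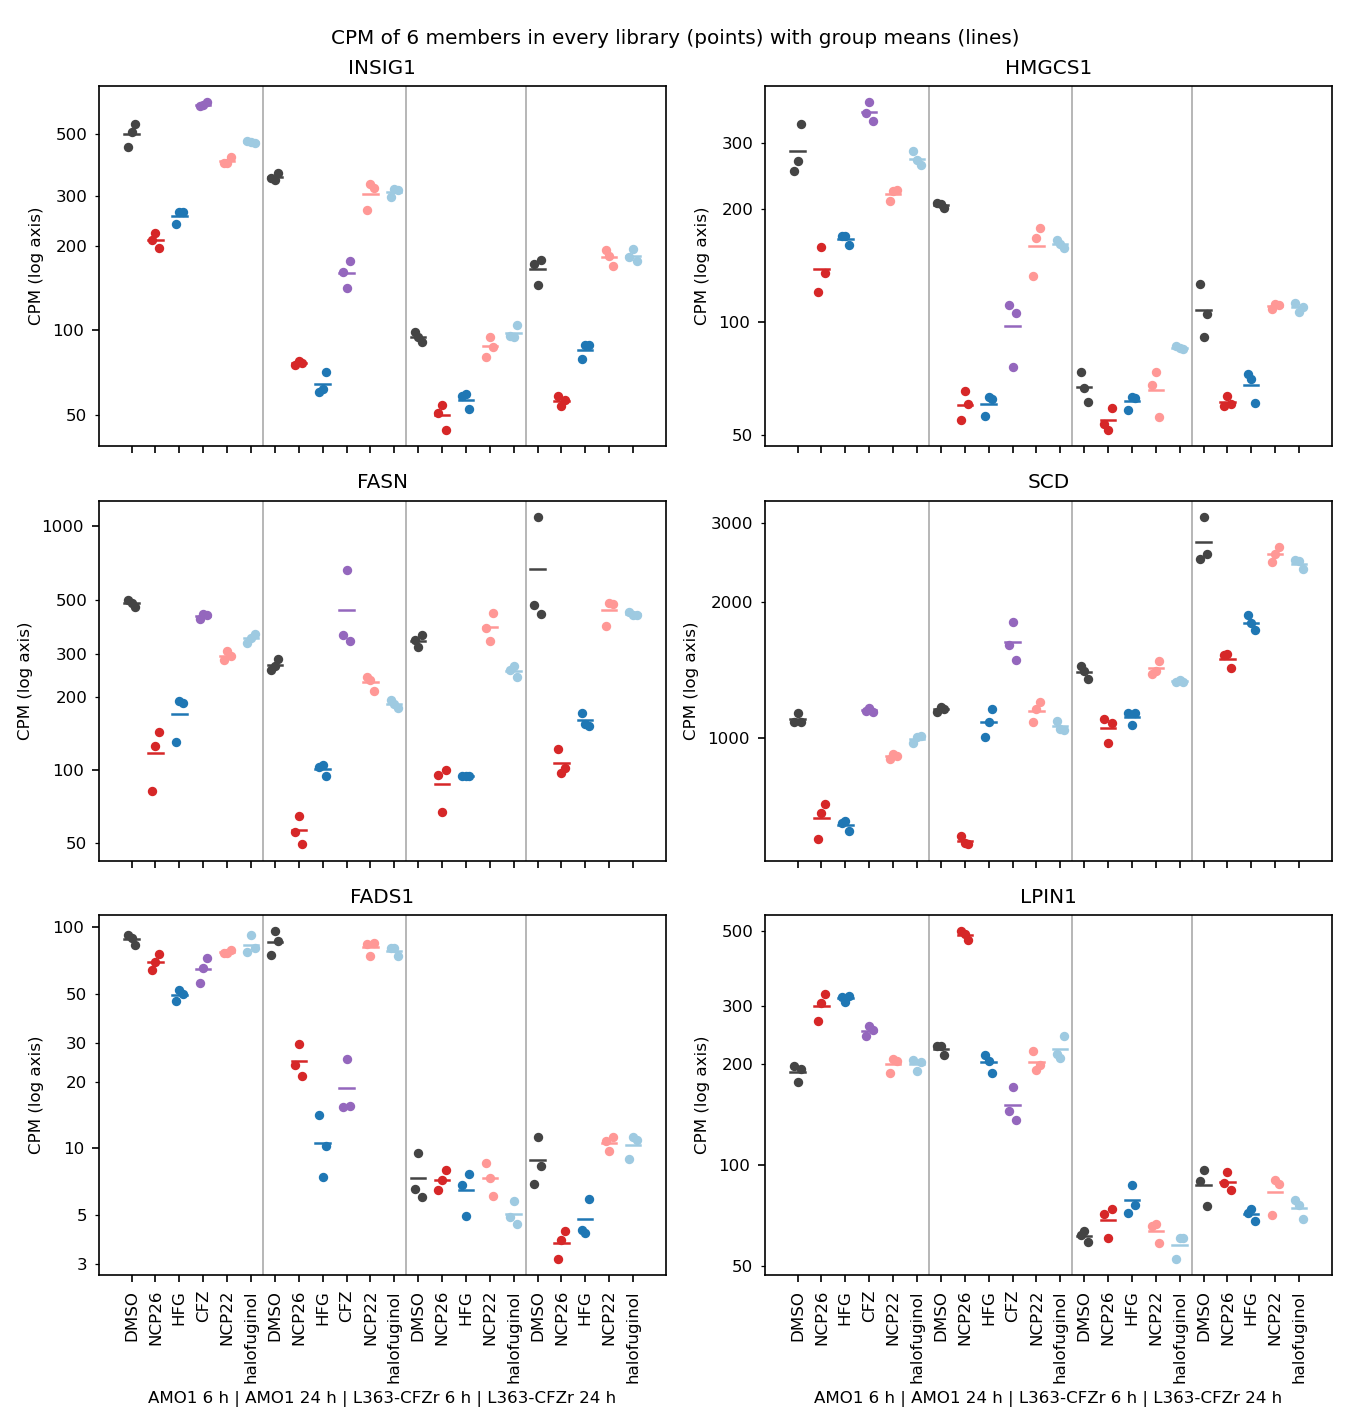
CPM in each library, on a log axis, of INSIG1, HMGCS1, FASN, SCD, FADS1 and LPIN1 by treatment, with 1 point per library and a bar at the mean of 3, for both lines and times. NCP26 and HFG points of INSIG1 and FASN lie below all DMSO points in both lines at both times, and LPIN1 with NCP26 lies above all other groups in AMO1 cells at 24 h.

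FASN (chr17:82078338-82098294, minus strand), the fatty acid synthase, showed the largest fall with NCP26 among the members in both lines and at both times. The 6 h values in AMO1 cells were 499, 482 and 466 CPM with DMSO, 81.9, 126 and 143 with NCP26, 130.5, 192 and 188 with HFG, 281, 306 and 293 with NCP22, 332, 347 and 360.5 with halofuginol, and 417, 434 and 432 with CFZ. After 24 h the values were 257, 266 and 284 CPM with DMSO, 55.7, 64.9 and 49.5 with NCP26, 102, 105 and 94.5 with HFG, 239.6, 234 and 212 with NCP22, 193, 186 and 179.7 with halofuginol, and 357, 658 and 338 with CFZ. At 6 h all 15 treated libraries lay below DMSO, in the order NCP26, HFG, NCP22, halofuginol, CFZ by mean, with NCP26 and HFG overlapping. At 24 h the same order held for the first pair, halofuginol lay below NCP22, and CFZ stood above DMSO with replicate 2 far from its partners. The differences at 6 h were −2.03 ± 0.16 (adjusted p = 2.75e-06) with NCP26, −1.45 ± 0.11 (adjusted p = 3.15e-08) with HFG, −0.70 ± 0.063 (adjusted p = 8e-08) with NCP22 and −0.47 ± 0.06 (adjusted p = 9.86e-05) with halofuginol. At 24 h they were −2.26 ± 0.075 (adjusted p = 1.19e-21), −1.43 ± 0.068 (adjusted p = 3.21e-12), −0.23 ± 0.073 (adjusted p = 0.713) and −0.55 ± 0.064 (adjusted p = 8.67e-05) in the same order. CFZ gave −0.18 ± 0.061 (adjusted p = 0.0336) at 6 h and 0.77 ± 0.25 (adjusted p = 0.0555) at 24 h. The transcript has a GC content of 65.28%, and in the 6 h comparisons log2 fold changes correlated with GC content across genes, with r from −0.51 with NCP22 to −0.117 with CFZ in AMO1 cells. With a GC content offset, the 6 h values were −1.73 (adjusted p = 3.01e-05) with NCP26, −1.20 (adjusted p = 1.71e-08) with HFG, −0.49 (adjusted p = 2.12e-06) with NCP22, −0.31 (adjusted p = 0.0014) with halofuginol and −0.069 (adjusted p = 0.34) with CFZ. One fit of all groups of the line gave −0.47 (adjusted p = 0.145) with halofuginol at 6 h. In L363-CFZr cells FASN stood at 342, 318 and 357 CPM with DMSO, 95.1, 67.1 and 100.1 with NCP26, 94.2, 94.4 and 94.8 with HFG, 383, 338 and 439 with NCP22, and 258, 267 and 241 with halofuginol at 6 h. Its levels at 24 h were 477, 1091 and 438 CPM with DMSO, 121, 97.2 and 101 with NCP26, 172, 155 and 152 with HFG, 391, 486 and 478 with NCP22, and 444, 433 and 431 with halofuginol. NCP26 and HFG lay under every other library at both times, and DMSO replicate 2 at 24 h stood far above its partners. NCP26 gave −1.93 ± 0.14 (adjusted p = 1.28e-05) at 6 h and −2.63 ± 0.36 (adjusted p = 0.00747) at 24 h, and HFG −1.81 ± 0.067 (adjusted p = 1.37e-16) and −2.07 ± 0.35 (adjusted p = 0.047). Without DMSO replicate 2 the 24 h values were −2.10 (adjusted p = 2.84e-08) and −1.51 (adjusted p = 2.8e-15). At 6 h fold changes in these cells correlated with GC content across genes at r = −0.369 with NCP26 and −0.568 with HFG. The HFG and DMSO libraries at 6 h also belonged to different sets. Values of FASN with the GC content offset or the set as a term are not given here for these cells.

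SCD (chr10:100347233-100364826, plus strand), the most abundant member by CPM in DMSO, was lowered in AMO1 cells by NCP26 at both times and by HFG at 6 h. AMO1 libraries at 6 h held SCD at 1081, 1137 and 1084 CPM with DMSO, 594, 678 and 713 with NCP26, 647, 654 and 621 with HFG, 896, 921 and 911 with NCP22, 974, 1005 and 1007 with halofuginol, and 1149, 1165 and 1143 with CFZ. SCD at 24 h stood at 1143, 1169 and 1159 CPM with DMSO, 603, 583 and 579 with NCP26, 1006, 1083 and 1158 with HFG, 1082, 1159 and 1200 with NCP22, 1090, 1048 and 1039 with halofuginol, and 1604, 1812 and 1487 with CFZ. At 24 h NCP26 lay lowest, HFG overlapped with DMSO, and CFZ lay highest. The differences were −0.73 ± 0.10 (adjusted p = 0.000193) and −0.75 ± 0.056 (adjusted p = 3.15e-08) at 6 h for NCP26 and HFG, and −0.98 ± 0.039 (adjusted p = 1.28e-19), −0.10 ± 0.044 (adjusted p = 0.0644) and, with CFZ, 0.52 ± 0.13 (adjusted p = 0.0189) at 24 h. In L363-CFZr cells SCD stood at 1441, 1410 and 1354 CPM with DMSO, 1103, 972 and 1076 with NCP26, 1133, 1066 and 1134 with HFG, 1389, 1410 and 1484 with NCP22, and 1328, 1345 and 1333 with halofuginol at 6 h. At 24 h the libraries had SCD at 2493, 3097 and 2561 CPM with DMSO, 1526, 1534 and 1429 with NCP26, 1873, 1797 and 1735 with HFG, 2458, 2567 and 2655 with NCP22, and 2480, 2471 and 2367 with halofuginol. NCP26 and HFG lay below all other libraries at both times. NCP26 changed it by −0.39 ± 0.10 (adjusted p = 0.0225) at 6 h and −0.85 ± 0.16 (adjusted p = 0.0211) at 24 h. Without DMSO replicate 2 the 24 h value was −0.75 (adjusted p = 8.78e-07).

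FADS1 (chr11:61799627-61829318, minus strand), the delta-5 desaturase, showed the largest fall among the members with HFG and CFZ in AMO1 cells at 24 h. In AMO1 cells at 6 h it stood at 92.2, 88.9 and 83.3 CPM with DMSO, 63.9, 69.8 and 75.4 with NCP26, 46.4, 51.8 and 50 with HFG, 76.5, 76.1 and 78.6 with NCP22, 77.2, 92 and 80.8 with halofuginol, and 55.7, 65 and 72.3 with CFZ. By 24 h the values stood at 74.8, 95.4 and 86.2 CPM with DMSO, 23.8, 29.7 and 21.2 with NCP26, 14.1, 7.45 and 10.3 with HFG, 84.2, 73.8 and 84.4 with NCP22, 80.3, 80.1 and 73.8 with halofuginol, and 15.4, 25.3 and 15.6 with CFZ. HFG lay lowest at both times, below NCP26 without overlap, and NCP22 and halofuginol stayed near DMSO. The differences were −0.33 ± 0.10 (adjusted p = 0.0266), −0.79 ± 0.09 (adjusted p = 2.53e-06) and −0.45 ± 0.10 (adjusted p = 0.00146) with NCP26, HFG and CFZ at 6 h. By DESeq2 that with NCP26 was −0.31 (adjusted p = 0.0941). The 3 differences at 24 h were −1.80 ± 0.11 (adjusted p = 8.53e-15), −3.06 ± 0.16 (adjusted p = 7.89e-12) and −2.17 ± 0.21 (adjusted p = 0.0003). The HFG libraries at 24 h held 18 to 31 counts of FADS1. In L363-CFZr cells it was scarce, at 6.58, 9.54 and 6.01 CPM with DMSO, 6.49, 7.2 and 8 with NCP26, 6.82, 4.95 and 7.7 with HFG, 8.59, 7.32 and 6.07 with NCP22, and 4.89, 5.78 and 4.56 with halofuginol at 6 h. The 24 h libraries held FADS1 at 6.92, 11.2 and 8.32 CPM with DMSO, 3.17, 3.84 and 4.24 with NCP26, 4.3, 4.13 and 5.93 with HFG, 10.8, 9.74 and 11.3 with NCP22, and 8.95, 11.2 and 10.9 with halofuginol. At 20 to 28 counts per DMSO library at 6 h, changes in these cells were poorly resolved, and NCP26 gave −1.19 ± 0.28 (adjusted p = 0.0451) at 24 h. Without DMSO replicate 2 the 24 h value was −1.01 (adjusted p = 0.0244). FADS1 lies within the span of FADS2 on the other strand, and whether the counting used the strand is not given in the sources used here, so reads from stretches that both cover cannot be told apart. FADS2, the delta-6 desaturase, stood in AMO1 cells at 14.6, 16.4 and 13.5 CPM with DMSO, 8.62, 10.8 and 9.76 with NCP26, 10.8, 9.62 and 9.08 with HFG, 12.6, 11.4 and 13.1 with NCP22, 11.6, 17.6 and 13.6 with halofuginol, and 8.7, 14.5 and 13.7 with CFZ at 6 h. After 24 h the values were 12.5, 11.3 and 13.2 CPM with DMSO, 8.77, 7.5 and 8.8 with NCP26, 7.88, 5.38 and 6.3 with HFG, 15.2, 13.3 and 5.66 with NCP22, 11, 13.8 and 10.7 with halofuginol, and 7.36, 9.25 and 5.45 with CFZ. NCP26 and HFG lay below DMSO at both times, with −0.59 ± 0.20 (adjusted p = 0.0347) and −0.58 ± 0.18 (adjusted p = 0.015) at 6 h, and −0.57 ± 0.20 (adjusted p = 0.0162) and −0.95 ± 0.24 (adjusted p = 0.00214) at 24 h. Each of these calls was lost under an alternative. With the GC content offset the 6 h values were −0.35 (adjusted p = 0.194) and −0.37 (adjusted p = 0.106), and NCP26 at 24 h gave −0.41 (adjusted p = 0.0817). With the set as a term the 24 h values were −0.58 (adjusted p = 0.397) and −0.95 (adjusted p = 0.136). In L363-CFZr cells FADS2 stood at 6.58, 11.2 and 9.67 CPM with DMSO, 6.9, 4.48 and 6.4 with NCP26, 6.82, 3.63 and 5.56 with HFG, 8.59, 10 and 6.3 with NCP22, and 5.36, 7.65 and 8.05 with halofuginol at 6 h. Its levels at 24 h were 8.15, 8.6 and 9.06 CPM with DMSO, 6.97, 7.44 and 4.56 with NCP26, 6.28, 4.82 and 6.59 with HFG, 8.37, 7.85 and 7.61 with NCP22, and 8.31, 6.24 and 6.93 with halofuginol. These levels lay close together, and HFG at 6 h gave −0.70 ± 0.26 (adjusted p = 0.0261), which was −0.37 (adjusted p = 0.281) with the GC content offset and −0.16 (adjusted p = 0.834) with the set as a term.

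The precursors and the chain length of fatty acids depend on ACLY, ACSS2 and ELOVL6. ACLY, which cleaves citrate to acetyl-CoA, stood in AMO1 cells at 6 h at 405, 427 and 376 CPM with DMSO, 205, 239.5 and 264 with NCP26, 195, 213 and 225 with HFG, and 319, 342 and 313 with CFZ. All 9 treated libraries lay below DMSO, with −0.76 ± 0.11 (adjusted p = 0.000276), −0.89 ± 0.076 (adjusted p = 1.33e-07) and −0.31 ± 0.068 (adjusted p = 0.00127). ACSS2, which makes acetyl-CoA from acetate, stood in AMO1 cells at 24 h at 38.5, 34.7 and 38.7 CPM with DMSO, 20, 24.5 and 17.6 with NCP26, and 19.1, 19.5 and 22.6 with HFG. It changed by −0.86 ± 0.13 (adjusted p = 1.48e-06) with NCP26 and −0.85 ± 0.13 (adjusted p = 1.77e-05) with HFG. In L363-CFZr cells ACSS2 at 6 h stood at 30.3, 30 and 39.5 CPM with DMSO, 20.7, 21 and 19.6 with NCP26, and 26.6, 18.5 and 17.5 with HFG, with −0.70 ± 0.15 (adjusted p = 0.00902) and −0.65 ± 0.15 (adjusted p = 0.000928), and the latter was −0.64 (adjusted p = 0.0663) with the set as a term. ELOVL6, which lengthens palmitate, was called in opposite directions with HFG in the lines at 6 h. It stood at 29.8, 32.2 and 37.9 CPM with DMSO, 32.1, 29.6 and 27 with NCP26, and 21.1, 21.9 and 26.8 with HFG in AMO1 cells, and HFG lay below DMSO. In L363-CFZr cells it stood at 18.8, 19.8 and 20.8 CPM with DMSO, 27.6, 17.1 and 23.8 with NCP26, and 35.9, 29.7 and 25.2 with HFG, and HFG lay above. The differences were −0.45 ± 0.14 (adjusted p = 0.0145) and 0.64 ± 0.14 (adjusted p = 0.000612), and the difference between them was not tested. The L363-CFZr value was 0.35 (adjusted p = 0.0521) with the GC content offset and 0.63 (adjusted p = 0.0936) with the set as a term. In L363-CFZr cells HFG and DMSO belonged to different sets at that time, and set and treatment cannot be told apart without the NCP22 library.

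LPIN1 (chr2:11677595-11827409, plus strand), a phosphatidate phosphatase of glycerolipid synthesis, rose in AMO1 cells with NCP26 at both times, where most members fell. The 6 h values in AMO1 cells were 198, 177 and 194 CPM with DMSO, 270.3, 304 and 325 with NCP26, 317, 308 and 320.1 with HFG, 189, 208 and 204 with NCP22, 206, 191 and 203 with halofuginol, and 243, 259.8 and 254 with CFZ. LPIN1 at 24 h stood at 227, 227 and 214 CPM with DMSO, 500, 490.2 and 472 with NCP26, 214, 205 and 189 with HFG, 219, 192 and 199 with NCP22, 214, 209 and 243 with halofuginol, and 145, 172 and 136 with CFZ. At 6 h NCP26, HFG and CFZ lay above DMSO, and at 24 h NCP26 alone lay above all of DMSO, with CFZ below. The differences were 0.67 ± 0.10 (adjusted p = 0.000414) with NCP26, 0.77 ± 0.072 (adjusted p = 3.78e-07) with HFG and 0.41 ± 0.071 (adjusted p = 0.000162) with CFZ at 6 h. At 24 h they were 1.13 ± 0.047 (adjusted p = 5.06e-19), −0.14 ± 0.063 (adjusted p = 0.0677) and −0.54 ± 0.12 (adjusted p = 0.0144). In L363-CFZr cells LPIN1 stood at 61.8, 63.4 and 58.9 CPM with DMSO, 71.4, 60.3 and 73.6 with NCP26, 71.7, 87.1 and 76.2 with HFG, 65.8, 66.7 and 58.5 with NCP22, and 52.3, 60.5 and 60.4 with halofuginol at 6 h. At 24 h the libraries had LPIN1 at 89.4, 96.5 and 75.1 CPM with DMSO, 88, 95 and 84.1 with NCP26, 71.8, 73.7 and 68.2 with HFG, 70.8, 90.1 and 87.7 with NCP22, and 78.7, 75.9 and 69 with halofuginol. NCP26 overlapped with DMSO at 24 h, at 0.047 ± 0.14 (adjusted p = 0.872), and HFG differed from DMSO at 6 h by 0.38 ± 0.092 (adjusted p = 0.00127).

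Set against each other, the sterol and the fatty acid arm had close medians with NCP26 in AMO1 cells in the main fits. The median log2 fold changes were −0.44 and −0.46 at 6 h and −0.85 and −0.80 at 24 h, while the median of all tested genes was within 0.02 of 0. The TMM scaling of the libraries centres most genes near 0, so the arm medians are relative to the other genes. A shift shared by all genes would not be seen. With HFG the medians were −0.48 and −0.66 at 6 h and −0.47 and −0.72 at 24 h. At 24 h DMSO and these treated libraries belonged to different sets. With the set as a term the 24 h medians were −0.69 and −0.96 with NCP26 and −0.34 and −0.82 with HFG. The arms then lay further apart with each compound, with the fatty acid median the lower. With CFZ they were −0.15 and −0.22 at 6 h and −0.16 and −0.23 at 24 h. In L363-CFZr cells the medians with NCP26 were −0.24 and −0.45 at 6 h and −0.56 and −0.80 at 24 h, and with HFG −0.32 and −0.36 at 6 h and −0.50 and −0.57 at 24 h. Without DMSO replicate 2 the 24 h medians there were −0.68 and −0.66 with NCP26 and −0.55 and −0.51 with HFG. The spread within an arm exceeded the gap between the arms, since in AMO1 cells with NCP26 at 24 h the fatty acid genes reached from −2.26 for FASN to 1.13 for LPIN1 and the sterol genes from −1.77 for HMGCS1 to 0.36 for SC5D. With NCP22 and halofuginol in AMO1 cells the medians of both arms lay between −0.21 and −0.048. No test was made of the difference between arms.

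**Figure D3:**
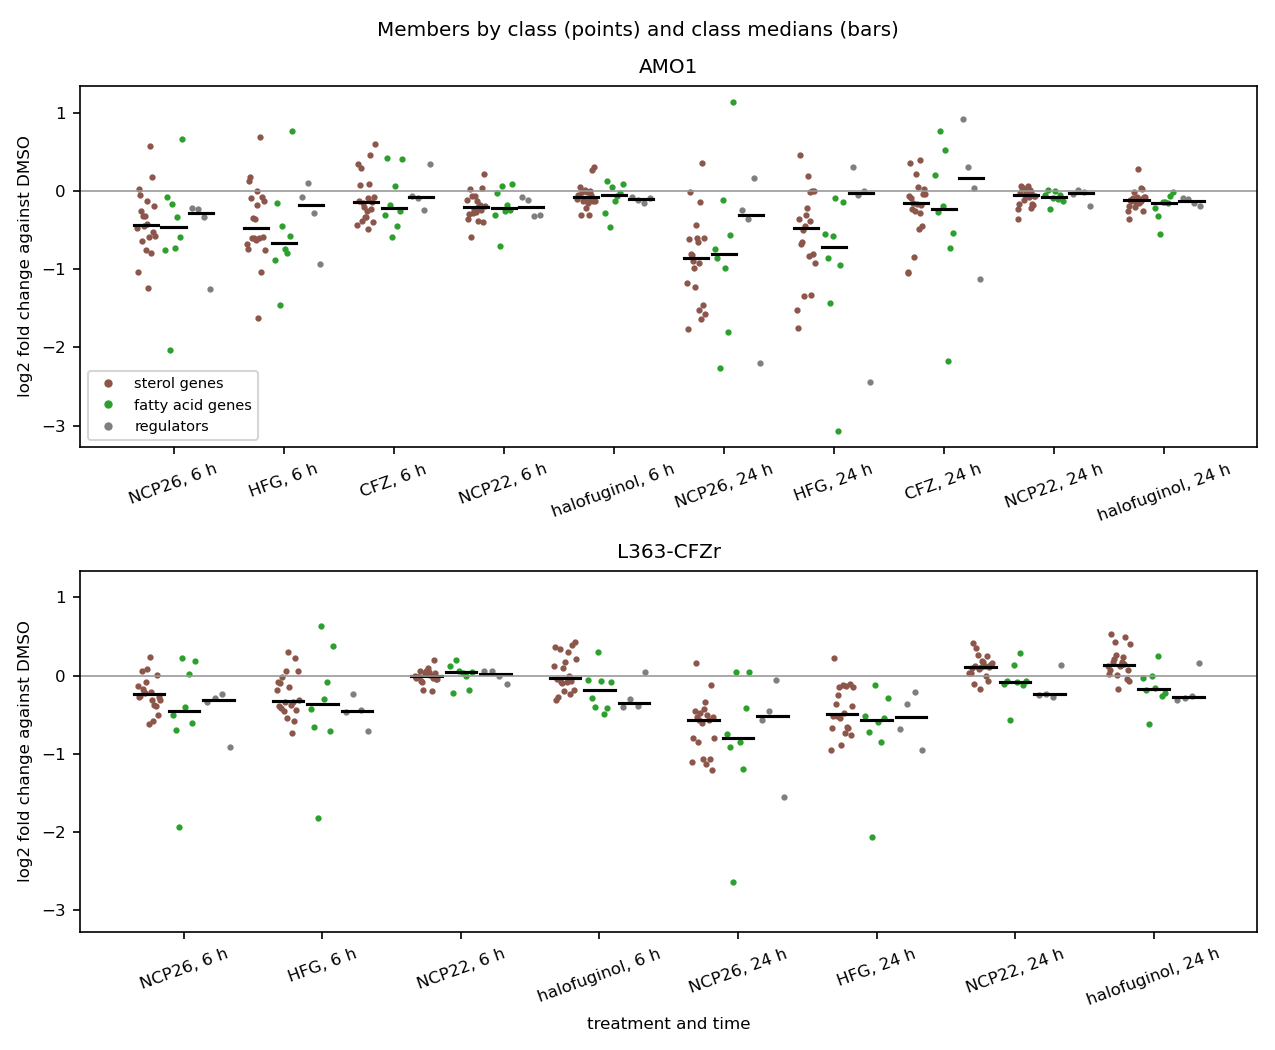
Log2 fold change against DMSO on the vertical axis for each sterol gene, fatty acid gene and regulator, 1 point per gene, by treatment and time on the horizontal axis in each line, with a bar at the median of each class. Both the sterol and the fatty acid median lie below 0 with NCP26 and HFG in each line and time, at −0.85 and −0.80 with NCP26 in AMO1 cells at 24 h, and between −0.15 and −0.054 with NCP22 and halofuginol in those cells at that time.

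NCP26 and HFG, 2 inhibitors of the same enzyme at the same dose, were compared with each other directly. In AMO1 cells at 6 h edgeR called 0 members and 0.260% of all genes, although 7 members and 1416 genes had an unadjusted p under 0.05. NCP26 replicate 1 at 6 h had 15581 genes detected, against 13577 and 13636 in its partners, and without it 1 member was called. Few calls here thus do not show that the compounds acted alike. The difference for FASN was −0.55 ± 0.19 (adjusted p = 0.264), with a 95% interval of −0.97 to −0.13, and for INSIG1 −0.29 ± 0.09 (adjusted p = 0.215), with −0.49 to −0.092. At 24 h, where both groups belonged to set B, 15 members were lower and 5 higher with NCP26, with 44.9% of all genes called, 22.4% lower and 22.6% higher. Taken as NCP26 minus HFG, SCD differed by −0.89 ± 0.044 (adjusted p = 1.92e-11), NSDHL by −0.91 ± 0.19 (adjusted p = 0.000864), FASN by −0.84 ± 0.10 (adjusted p = 1.42e-06), SQLE by −0.79 ± 0.11 (adjusted p = 1.71e-05) and SREBF1 by −0.57 ± 0.068 (adjusted p = 1.88e-06). LPIN1 was higher with NCP26 by 1.26 ± 0.055 (adjusted p = 4.11e-12) and FADS1 by 1.25 ± 0.21 (adjusted p = 0.000117). HMGCS1 did not differ past the threshold, with an interval of −0.23 to 0.17, nor did ACSS2, with −0.36 to 0.35. By arm the sterol genes split into 10 lower and 1 higher and the fatty acid genes into 3 lower and 3 higher, with medians of −0.35 and 0.18.

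In L363-CFZr cells at 24 h, within set C, 11 members were lower and 1 higher with NCP26 than with HFG, against 12.9% of all genes called and 7.43% called lower. TMEM97 differed by −0.65 ± 0.13 (adjusted p = 0.00678), INSIG1 by −0.60 ± 0.086 (adjusted p = 0.000731) and FASN by −0.58 ± 0.09 (adjusted p = 0.00127), and LPIN1 by 0.33 ± 0.08 (adjusted p = 0.0154). One fit of all groups of the line gave −0.58 (adjusted p = 0.157) for FASN. INSIG1 thus stood lower with NCP26 here, whereas in AMO1 cells at 24 h it stood higher with NCP26, by 0.23 ± 0.088 (adjusted p = 0.0427). The difference between these was not tested. FASN and SCD stood lower and LPIN1 higher with NCP26 than with HFG in both lines.

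**Figure D4:**
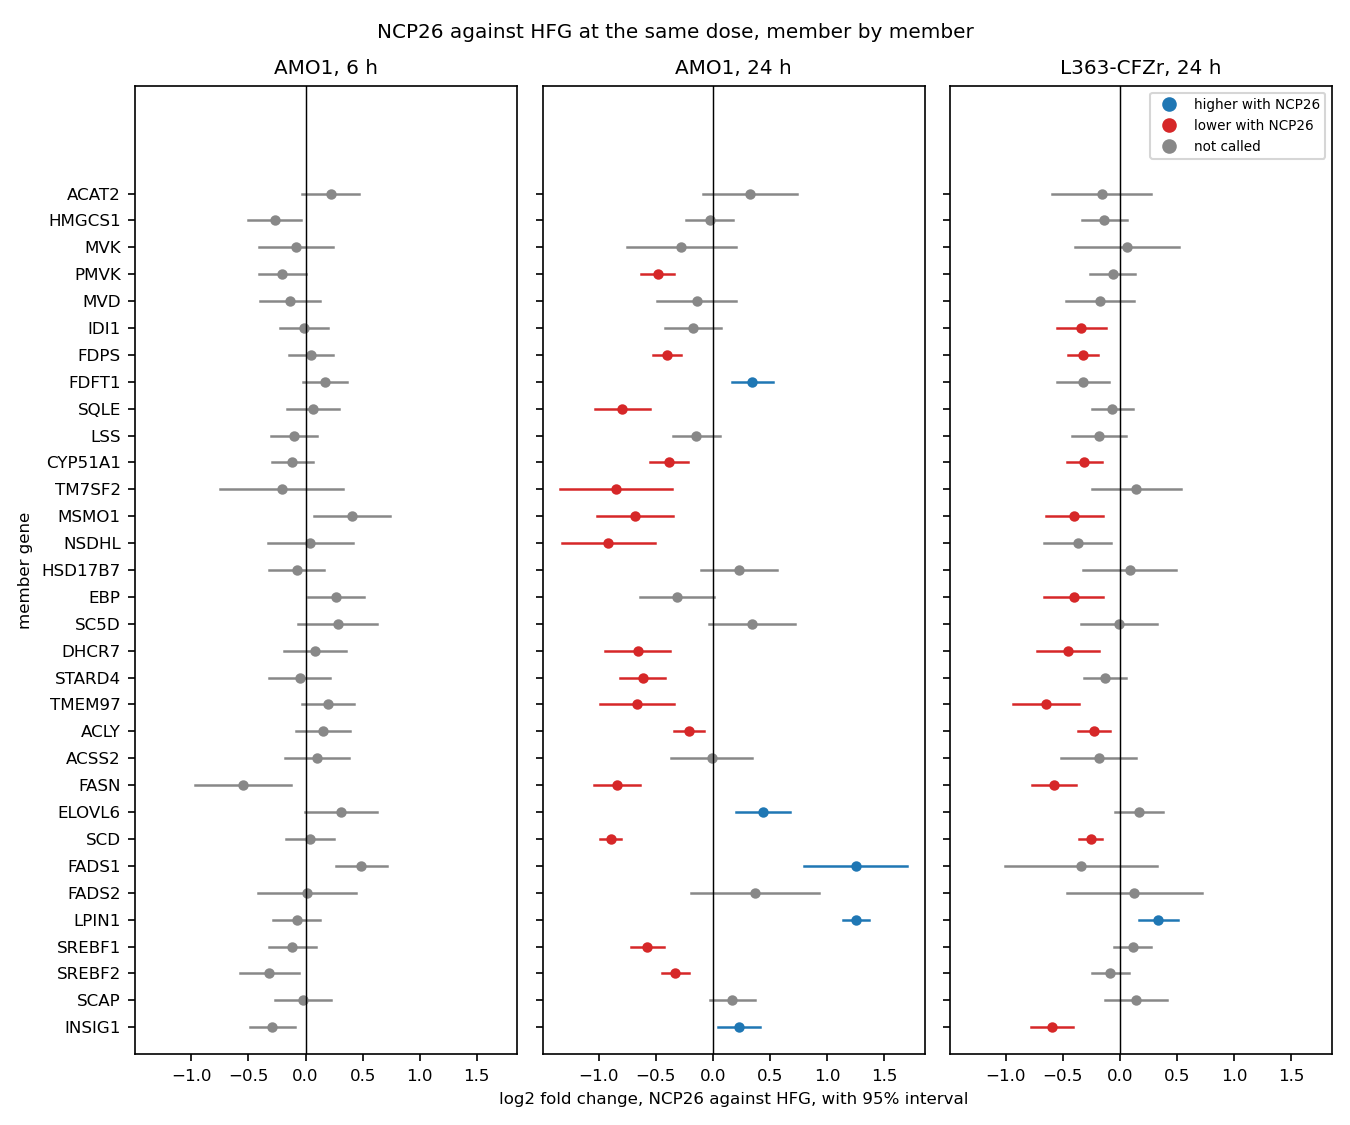
Log2 fold change of NCP26 against HFG on the horizontal axis with its 95% interval, 1 point per member down the vertical axis, in AMO1 cells at 6 h and 24 h and in L363-CFZr cells at 24 h. Blue is higher and red lower with NCP26 past the threshold and grey not called. LPIN1 lies at 1.26 in AMO1 cells and at 0.33 in L363-CFZr cells at 24 h, SCD at −0.89 and −0.26, and all points are grey in AMO1 cells at 6 h.

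The analogues were compared within sets as well. NCP26 against NCP22, from which it was developed, gave 23 members lower and 2 higher in AMO1 cells at 24 h, with 52.0% of all genes called. FASN differed by −2.003 ± 0.096, INSIG1 by −1.99 ± 0.085, FADS1 by −1.68 ± 0.12, EBP by −1.60 ± 0.14 and TMEM97 by −1.48 ± 0.12, with adjusted p of at most 5.67e-07. LPIN1 was higher by 1.27 ± 0.071. HFG against halofuginol gave 19 lower and 2 higher in AMO1 cells at 24 h, with 56.6% called. FADS1 differed by −2.90 ± 0.15, INSIG1 by −2.24 ± 0.08, HMGCS1 by −1.39 ± 0.082, FDFT1 by −1.32 ± 0.08 and ACAT2 by −1.25 ± 0.16. SCD did not differ past the threshold, with an interval of −0.072 to 0.17, nor did LPIN1, with −0.28 to 0.043. In L363-CFZr cells at 6 h HFG against halofuginol gave 16 lower and 2 higher, with 47.3% called, led by FASN (−1.41 ± 0.053), INSIG1 (−0.75 ± 0.071), NSDHL (−0.73 ± 0.091), MSMO1 (−0.67 ± 0.10) and TMEM97 (−0.52 ± 0.089). These were 6 direct comparisons in all. With the p-values adjusted over the genes of the 6 together, an alternative chosen after the values had been seen, 2 members were lower and 1 higher with NCP26 than HFG in AMO1 cells at 6 h, namely INSIG1 and FASN against FADS1, at adjusted p = 0.0263, 0.0433 and 0.0027. Pooling with pairs where far more genes were called loosens the threshold for this pair. These added calls are therefore no firmer evidence than the unpooled values. In that adjustment INSIG1 no longer passed in AMO1 cells at 24 h, at adjusted p = 0.0514, which left 15 lower and 4 higher, in L363-CFZr cells 13 were lower and 1 higher, and the counts of the other 3 pairs were unaltered.

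Members differed between the lines before treatment, as did many of all tested genes. Taken as L363-CFZr minus AMO1, the sterol and fatty acid medians were −0.39 and −0.62 at 6 h and 0.086 and 0.025 at 24 h. Without DMSO replicate 2 of L363-CFZr the 24 h medians were 0.21 and −0.019. In DMSO at 6 h 19 members were lower and 4 higher in L363-CFZr than in AMO1 cells, with 60.2% of all genes called and 31.3% called lower. As L363-CFZr minus AMO1, FADS1 differed by −3.63 ± 0.15, INSIG1 by −2.42 ± 0.084, HMGCS1 by −2.12 ± 0.11, ACAT2 by −1.70 ± 0.12 and LPIN1 by −1.66 ± 0.088 on the log2 scale, and SREBF1 was higher by 1.10 ± 0.074. At 24 h 7 were lower and 6 higher, with 39.9% called, and without DMSO replicate 2 of L363-CFZr 9 were lower and 15 higher, with 65.0% called. FADS1 differed by −3.30 ± 0.21 and SREBF1 by 1.35 ± 0.20, while FASN, SCD and LSS were higher by 1.32 ± 0.35, 1.24 ± 0.15 and 0.75 ± 0.18. Without that library FASN was higher by 0.75 (adjusted p = 6.11e-13) and SCD by 1.12 (adjusted p = 8.9e-21). The 6 h pair came from sets A and B and the 24 h pair from sets A and C, so line and set cannot be told apart here.

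Whether an effect differed between the lines was tested as an interaction. For NCP26 at 6 h 2 members differed, HMGCS1 and MSMO1, with 2.71% of all genes called, and for NCP26 at 24 h 4 did, with 5.41%. For HFG at 24 h 8 differed, with 16.9%. HMGCS1 fell less in L363-CFZr than in AMO1 cells with NCP26, by 0.75 ± 0.18 (adjusted p = 0.0351) at 6 h and 0.94 ± 0.17 (adjusted p = 0.00693) at 24 h, and the rise of LPIN1 with NCP26 at 24 h was smaller there, by −1.10 ± 0.14 (adjusted p = 0.00124). With HFG the difference was 2.20 ± 0.37 (adjusted p = 0.00158) for FADS1 and 1.48 ± 0.14 (adjusted p = 3.96e-05) for INSIG1. Among the members with a positive difference, FADS1, INSIG1, HMGCS1 and FDFT1 also stood lower in L363-CFZr DMSO libraries at 24 h. The same DMSO libraries enter both values, so the values are tied to each other by construction and nothing is concluded from this. Without DMSO replicate 2 at 24 h 8 members differed for NCP26, with 21.1% of all genes called, and 13 for HFG, with 33.4%.

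The controls also changed with time. In AMO1 DMSO libraries, all of set A, 18 members were lower and 4 higher at 24 h than at 6 h, with 46.5% of all genes called. FDPS, FASN and ACAT2 changed by −0.84 ± 0.064, −0.83 ± 0.062 and −0.79 ± 0.093, and STARD4 and ELOVL6 by 0.64 ± 0.11 and 0.57 ± 0.12. With the GC content offset STARD4 gave 0.40 (adjusted p = 0.00111). In L363-CFZr DMSO libraries 7 members were higher and 1 lower at 24 h, with 14.8% called, among them ELOVL6 by 1.30 ± 0.15, STARD4 by 0.98 ± 0.14, SCD by 0.96 ± 0.16, INSIG1 by 0.81 ± 0.13 and MSMO1 by 0.72 ± 0.14. Without DMSO replicate 2 at 24 h 12 were higher and 4 lower, with 41.1% called. In these cells the 6 h libraries belonged to set B and the 24 h libraries to set C. Handling before RNA extraction also went with time, by a method that the study describes for AMO1 cells. Freezing was used for 6 h samples and ice for 24 h samples, so time and handling cannot be told apart.

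Among 37 tested genes of neighbouring pathways, listed for sterol sensing, isoprenoid use, the LXR side, sterol transport and other lipid steps, the changes ran both ways. With NCP26 in AMO1 cells 7 fell and 5 rose at 6 h, where 37.3% of all genes were called, and 13 fell and 12 rose at 24 h, where 60.7% were. With HFG 5 fell and 10 rose at 6 h, and 11 of each at 24 h, with 54.3% and 59.0% of all genes called. The median log2 fold change of these genes was −0.024 and −0.060 with NCP26 and −0.021 and 0.033 with HFG at the 2 times. INSIG2, the partner of INSIG1, fell with both compounds at 6 h, by 1.27 with NCP26 and 1.13 with HFG on the log2 scale. MID1IP1, an activator of fatty acid synthesis, rose by 0.90 and 1.31, and NPC1, which exports cholesterol from lysosomes, rose by 0.39 with NCP26. NR1H3, the sterol-sensing receptor LXR-alpha, fell at 24 h by 1.67 with NCP26 and 1.80 with HFG. CFZ gave 2 falls and 7 rises at 6 h, and 1 and 7 at 24 h, with 26.9% and 27% of all genes called. In L363-CFZr cells NCP26 gave 3 falls and 4 rises at 6 h, and 2 and 0 at 24 h, with 18.8% and 7.09% of all genes called. HFG there gave 7 and 17 at 6 h, with 54.5%, and halofuginol 3 and 9, with 25.8%. In these 2 comparisons DMSO and treated libraries belonged to different sets, and fold changes correlated with GC content at r = −0.568 and −0.717. Counts of this list with the set as a term or the GC content offset are not given here. NCP22 in AMO1 cells at 6 h gave 3 falls and 1 rise, with 13.5%, and the remaining 7 comparisons with DMSO gave 0 calls in this list.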

How the data were processed

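PolyA RNA of 66 samples was sequenced, and the authors deposited whole-number counts per gene. The labels name kallisto and hg19, the study's methods kallisto and GRCh38, and which build made the table is not settled by it. Genes were matched by Ensembl identifier to GENCODE v44 (19299 of 20167 identifiers). Groups came from the sample labels, and the members, the lists of related genes and of markers, and the tests were chosen with earlier results of these data known. Values in every library are given for 12 members chosen by name and for up to 5 further called members per comparison that set NCP26, HFG or CFZ beside DMSO, by size of change, and other comparisons name up to 5 called members.

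Each comparison was fitted on its own groups with edgeR 4.0.16 (R 4.3.3) by the quasi-likelihood F test after filterByExpr (minimum count 10, minimum total 15) and TMM scaling, with Benjamini-Hochberg adjustment over all genes tested and a threshold of 0.05. Standard errors are the log2 fold change over the square root of F, and intervals are at 95%. CPM were scaled by TMM over all 66 libraries. Precision follows from the 1666325 to 6596543 counts per library, and no library pair within a group held identical values. The study's test, DESeq2 (1.42.0), other scaling, no filter, a fit of all groups of a line, an offset for GC content (lowess span 0.3, all tested genes with a match), the replicate number as a block, the set of libraries as a term and each library left out were tried. The script was tested on simulated counts. Motifs and promoters were read from RefSeq sequences of GRCh38.p14. Figures were drawn with matplotlib 3.10.9.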

Additional observations from a re-analysis of the deposited data

Results flagged for a closer look

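Effects that differed between L363-CFZr and AMO1 cells by the interaction test, given as the log2 fold change in L363-CFZr cells minus that in AMO1 cells, are listed here with their values. Of all tested genes 2.71% were called for NCP26 at 6 h, 5.41% for NCP26 at 24 h and 16.9% for HFG at 24 h. With NCP26 at 6 h 2 members differed, MSMO1 by 0.92 ± 0.18 (adjusted p = 0.0109) and HMGCS1 by 0.75 ± 0.18 (adjusted p = 0.0351), and both fell less in L363-CFZr cells. With NCP26 at 24 h 4 members differed. HMGCS1 differed by 0.94 ± 0.17 (adjusted p = 0.00693), TMEM97 by 0.73 ± 0.19 (adjusted p = 0.0464) and INSIG1 by 0.63 ± 0.14 (adjusted p = 0.0227), all of which fell less in L363-CFZr cells, and LPIN1, which rose in AMO1 cells only past the threshold, by −1.10 ± 0.14 (adjusted p = 0.00124). Without the filter on low counts TMEM97 gave 0.75 (adjusted p = 0.0776) and INSIG1 0.64 (adjusted p = 0.054). With HFG at 24 h 8 members differed, with FADS1 at 2.20 ± 0.37 (adjusted p = 0.00158), INSIG1 at 1.48 ± 0.14 (adjusted p = 3.96e-05), FDFT1 at 1.19 ± 0.14 (adjusted p = 0.000224) and HMGCS1 at 1.08 ± 0.16 (adjusted p = 0.000892) on the positive side and SREBF1 at −0.999 ± 0.22 (adjusted p = 0.00758) on the negative side. In the 24 h comparisons AMO1 DMSO and treated libraries belonged to different sets while all L363-CFZr libraries belonged to 1 set, so line and set cannot be told apart, and the L363-CFZr DMSO group holds the library that stood apart. Without that library the NCP26 values at 24 h were 0.84 for HMGCS1, 0.66 for TMEM97, 0.53 for INSIG1 and −1.03 for LPIN1. The HFG values were then 2.4 for FADS1, 1.4 for INSIG1, 1.10 for FDFT1, 0.98 for HMGCS1 and −0.76 for SREBF1.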

How the results depend on the processing

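Replicate numbers showed no pairing of the samples by the rule used, since in 0 of 28 comparisons of 2 groups did all 3 same-numbered pairs deviate together at a correlation over 0.1. With 3 libraries in a group that rule cannot exclude a weaker pairing, or one in some comparisons only. A fit with the replicate block changed the count of members called from 0 to 1 with NCP22 and from 2 to 1 with halofuginol in AMO1 cells at 24 h, from 15 to 5 with NCP26 and from 2 to 0 with HFG in L363-CFZr cells at 24 h, and from 2 to 1 in the NCP26 interaction at 6 h. Block and GC content offset together gave 1 with halofuginol in AMO1 cells at 24 h, 5 with NCP26 and 0 with halofuginol in L363-CFZr cells at 6 h, 3 with NCP26 and 0 with HFG there at 24 h, and 4 for L363-CFZr DMSO by time. That fit moved the sterol median to −0.42 with HFG in AMO1 cells at both times, to −0.25 with HFG and 0.046 with halofuginol in L363-CFZr cells at 6 h and to −0.43 for AMO1 DMSO by time, the fatty acid median to −0.11 with NCP22 in AMO1 cells at 6 h and to −0.74 for the lines in DMSO at 6 h, and SREBF2 with HFG in L363-CFZr cells at 6 h to 0.083.

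The GC content offset alone gave sterol medians of −0.42 with HFG in AMO1 cells at both times and of −0.25 with HFG and 0.048 with halofuginol in L363-CFZr cells at 6 h, fatty acid medians of −0.11 with NCP22 in AMO1 cells and −0.73 between the lines in DMSO at 6 h, 0 members called with halofuginol in L363-CFZr cells at 6 h, where 9 had been, and SREBF2 with HFG in those cells at 0.084. With the set of libraries as a term, sterol and fatty acid medians in AMO1 cells at 24 h were −0.69 and −0.96 with NCP26, −0.34 and −0.82 with HFG, 0.033 and −0.19 with NCP22 and 0.043 and −0.27 with halofuginol, 14 members were called with HFG and 0 with halofuginol, and SREBF1 with HFG was −0.018. In L363-CFZr cells at 6 h that term gave 8 called and a sterol median of −0.27 with HFG, and 1 called and 0.092 with halofuginol.

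One fit of all groups of a line called 1 member with halofuginol at 6 h, 0 with halofuginol and 17 with CFZ at 24 h in AMO1 cells, 15 with NCP26 and 3 with halofuginol at 6 h and 24 with NCP26 and 18 with HFG at 24 h in L363-CFZr cells, 2 between NCP26 and HFG in AMO1 cells at 6 h, 3 between them in L363-CFZr cells at 24 h, 21 between the lines in DMSO at 24 h, 16 for L363-CFZr DMSO by time, and 8 and 7 in the NCP26 interactions at 6 h and 24 h. Its sterol medians were −0.52 with HFG in AMO1 cells at 6 h and −0.32 for HFG against halofuginol. DESeq2 called 11 members with CFZ in AMO1 cells at 6 h and 9 with HFG in L363-CFZr cells at 24 h. Without the filter 1 was called with NCP22 in AMO1 cells at 24 h, 2 between NCP26 and HFG there at 6 h and 2 in the NCP26 interaction at 24 h. Adjustment over the 6 direct comparisons gave 3 for NCP26 against HFG in AMO1 cells at 6 h. DESeq2 size factors moved 0 of these results. The causes were not tested. Counts of members called in this section come without the share of all genes called in the same fit. The fits without L363-CFZr DMSO replicate 2 at 24 h are the exception, with shares given above.

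Leaving out 1 library at a time, counts of members called ranged in AMO1 cells from 7 to 13 with NCP22, 1 to 8 with halofuginol (8 without DMSO replicate 3) and 10 to 18 with CFZ (10 without its replicate 3) at 6 h, and from 0 to 2 with NCP22 (2 without its replicate 1), 1 to 2 with halofuginol and 6 to 16 with CFZ (16 without its replicate 2) at 24 h. In L363-CFZr cells they ranged from 4 to 17 with NCP26 at 6 h (17 without its replicate 2, 4 without DMSO replicate 3), and at 24 h from 1 to 23 with NCP26 and 0 to 19 with HFG (the upper values without DMSO replicate 2). NCP26 against HFG ranged from 0 to 1 in AMO1 cells at 6 h and from 5 to 13 in L363-CFZr cells at 24 h (5, 6 and 7 without an HFG library, 6 without NCP26 replicate 2). Between the lines in DMSO at 24 h the range was 9 to 24 and for L363-CFZr DMSO by time 0 to 16 (both upper values without DMSO replicate 2 at 24 h, 0 without any 6 h library). The interactions ranged from 1 to 3 and 2 to 8 for NCP26 at 6 h and 24 h and from 5 to 13 for HFG (8 and 13 without DMSO replicate 2 of L363-CFZr). Sterol medians ranged from −0.46 to −0.38 with NCP26, −0.51 to −0.42 with HFG and −0.22 to −0.15 with NCP22 in AMO1 cells at 6 h, from −0.55 to −0.45 with HFG there at 24 h, from −0.36 to −0.22 with HFG in L363-CFZr cells at 6 h, from −0.26 to −0.19 for NCP26 against HFG in L363-CFZr cells, from −0.31 to −0.22 for HFG against halofuginol in those cells, from −0.44 to −0.33 between the lines at 6 h, from −0.45 to −0.36 for AMO1 DMSO by time, and from 0.070 to 0.25 and 0.093 to 0.32 for the NCP26 interactions. Fatty acid medians ranged from −0.14 to 0.019 with halofuginol and −0.27 to −0.12 with CFZ in AMO1 cells at 6 h, from −0.78 to −0.67 with HFG there at 24 h, from −0.86 to −0.66 with NCP26 in L363-CFZr cells at 24 h, from −0.56 to −0.43 for HFG against halofuginol in AMO1 cells and from −0.65 to −0.54 between the lines at 6 h.

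Among the single members named, the threshold was lost in 187 of 1182 tests with 1 library left out, 14 of 185 with DESeq2, 10 of 186 in one fit per line, 5 of 186 without the filter, 20 of 186 with the replicate block, 20 of 186 with the GC content offset, 41 of 186 with the block and the offset and 19 of 59 with the set as a term. In 1 test under each of the last 3 the sign changed as well. With 3 libraries in a group, a single library that stands apart sets the spread of its whole comparison, and members of low level, such as FADS1 and FADS2 in L363-CFZr cells, were resolved least.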
